A study of Mus musculus with 15 samples.

Results

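Cholesterol synthesis and its control by SREBP2 were followed in kidney RNA through a list of 29 genes, taken by symbol as genes of the pathway; no measured value enters the rule, although earlier results of these data were known when the list was made. A row of the count table carried the symbol of 28 of them, and the remaining gene, Hmgcs1, was not analysed here. These 28 stood among 23866 gene rows, of which 16105 passed a filter on low counts, the 28 members included. By role, 6 members encode enzymes of the mevalonate pathway, 9 encode enzymes from squalene to cholesterol, 4 control SREBP2, 2 are SREBP targets beside the pathway, 4 belong to the LXR and efflux system, and 3 handle cholesterol in lysosomes or as esters. The list holds no lipoprotein receptor, so uptake is described from a separate set of pathway genes.

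The kidneys came from male C57BL/6 mice, and all groups began with a course of intraperitoneal injections lasting 6 weeks. The CCl4+EtOH group (3 libraries) received carbon tetrachloride (CCl4), a solvent known to injure liver and kidney, and then ethanol (EtOH) for 4 weeks. Its titles name CCl4 again before EtOH while its source descriptions do not, so whether CCl4 went on during the ethanol weeks is not settled by the labels. The EtOH group (4 libraries) received olive oil for the first course and then ethanol for 4 weeks. The CCl4 group (4 libraries) received CCl4, and in 2 of these mice lower doses of it followed over 4 more weeks. The olive oil group (3 libraries) received the vehicle for 6 weeks and was not carried through the later weeks, so ethanol and the added 4 weeks cannot be told apart when a group is set against it. Another olive oil sample of the series was not analysed here.

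Cells make cholesterol from acetyl-CoA through mevalonate and squalene, and they also take it up from lipoproteins. When sterols in the endoplasmic reticulum are scarce, the escort protein SCAP carries SREBP2 to the Golgi, where it is cut and released to switch on the synthesis enzymes. INSIG proteins hold the pair back when sterols are plentiful, and the nuclear receptors LXR alpha and LXR beta, which sense oxysterols, switch on the transporters that export cholesterol.

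The libraries held 16.4 to 23.5 M counts, and levels are given as CPM, counts scaled to the TMM-adjusted library size. Tubule genes such as Umod, the gene of uromodulin from the thick ascending limb, were abundant in every library (3521 to 5895 CPM). CCl4+EtOH replicate 3 stood apart from the other libraries of its group: its summed level of 5 injured tubule markers was 289 CPM, against 2970 and 2108 CPM in replicates 1 and 2, and 26.4 to 42.5 CPM in olive oil libraries. EtOH replicates 1 to 3 held adrenal cortex transcripts, a tissue that makes steroids from cholesterol. The summed level of 10 adrenal cortex markers was 872 to 1345 CPM in these 3 libraries and 78.0 CPM in EtOH replicate 4, against 74.0 to 85.2 CPM in olive oil libraries.

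Upstream sequences of the 4 members that fell furthest in CCl4+EtOH kidneys and have a promoter window are shown first, because synthesis genes are known to be switched on by SREBP2 together with NF-Y, which binds the motif CCAAT. The 250 bases before each annotated start are given 5′ to 3′ on the gene's own strand, from RefSeq in build GRCm38.p6, which is not the build used for counting. Capitals mark CCAAT or its reverse complement ATTGG.
Idi1, plus strand, chr13:8885356-8885605: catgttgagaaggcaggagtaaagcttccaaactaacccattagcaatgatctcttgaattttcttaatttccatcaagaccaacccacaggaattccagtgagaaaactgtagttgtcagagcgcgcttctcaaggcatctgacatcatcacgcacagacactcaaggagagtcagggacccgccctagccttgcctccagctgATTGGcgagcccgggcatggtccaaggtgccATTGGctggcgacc
Cyp51, minus strand, chr5:4104698-4104947: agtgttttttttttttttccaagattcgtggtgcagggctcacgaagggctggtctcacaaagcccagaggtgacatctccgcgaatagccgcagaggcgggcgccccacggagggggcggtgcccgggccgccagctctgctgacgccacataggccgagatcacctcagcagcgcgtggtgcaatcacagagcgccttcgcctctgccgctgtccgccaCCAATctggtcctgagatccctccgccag
Acss2, plus strand, chr2:155517793-155518042: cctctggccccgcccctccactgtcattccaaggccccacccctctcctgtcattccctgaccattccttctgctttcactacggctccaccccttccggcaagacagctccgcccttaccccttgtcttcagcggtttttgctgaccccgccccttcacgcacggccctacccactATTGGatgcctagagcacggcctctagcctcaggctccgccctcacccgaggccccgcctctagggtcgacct
Insig1, plus strand, chr5:28071162-28071411: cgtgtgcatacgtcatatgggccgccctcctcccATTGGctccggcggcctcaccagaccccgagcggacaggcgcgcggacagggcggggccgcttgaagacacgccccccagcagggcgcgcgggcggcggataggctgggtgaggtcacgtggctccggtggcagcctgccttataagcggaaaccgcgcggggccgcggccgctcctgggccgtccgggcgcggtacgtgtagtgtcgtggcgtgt

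Idi1 held 2 copies of the motif, with their first bases 14 and 45 bases before the start. The copy in Cyp51 began 29 bases before the start, that in Acss2 73 bases and that in Insig1 216 bases. Windows reaching 250 bases before and 50 bases after the start were given for 22 of the 28 members, and CCAAT stood on either strand in 17 of these 22 genes (77.3%) and in 11 of 12 synthesis enzymes (91.7%), against 41.1% of all 27025 genes with a window. Some genes had several windows, and any window with a motif counted the gene. By window, CCAAT was in 17 of 29 for the members (58.6%), against 37.4% of all 32851 windows. The SREBP motif TCACNCCAC, searched on both strands, was in 0 of the 22 genes and in 1.44% of all genes. Allowing 1 mismatch, a search added after that count was seen, 9 of 22 members (40.9%) held it, against 26.7% of all genes. An LXR element, 2 copies of AGGTCA with 4 bases between and at most 2 mismatches, was in 1 of 22 members and in 3.47% of all genes. CCAAT was absent for Scap, Nr1h3 and Acat2, which fell in CCl4+EtOH kidneys, for Abca1, which rose, and for Nr1h2, which was not called. It was present in Insig2, Soat1, Dhcr7, Lss, Srebf2 and Tm7sf2, which were not called, and in Npc2, which rose. The motif thus stood in members that fell and in members that did not, and a link between it and the fall was not tested. These matches describe letters in the windows and are not binding sites.

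In CCl4+EtOH kidneys against olive oil kidneys, most of the synthesis genes were lower, the SREBP2 partners Scap and Insig1 were lower, and the cholesterol exporters Abca1 and Abcg1 were higher. With edgeR's quasi-likelihood test and an adjusted p under 0.05 over all genes tested, 13 of 28 members fell and 3 rose. Over all genes tested, 16.6% were called lower and 18.9% higher in this comparison. The median log2 fold change of the 28 members was -0.38, and that of all genes tested was 0.02. Levels come from whole kidney, so fewer cells of a type and less RNA per cell cannot be told apart.

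**Figure D1:**
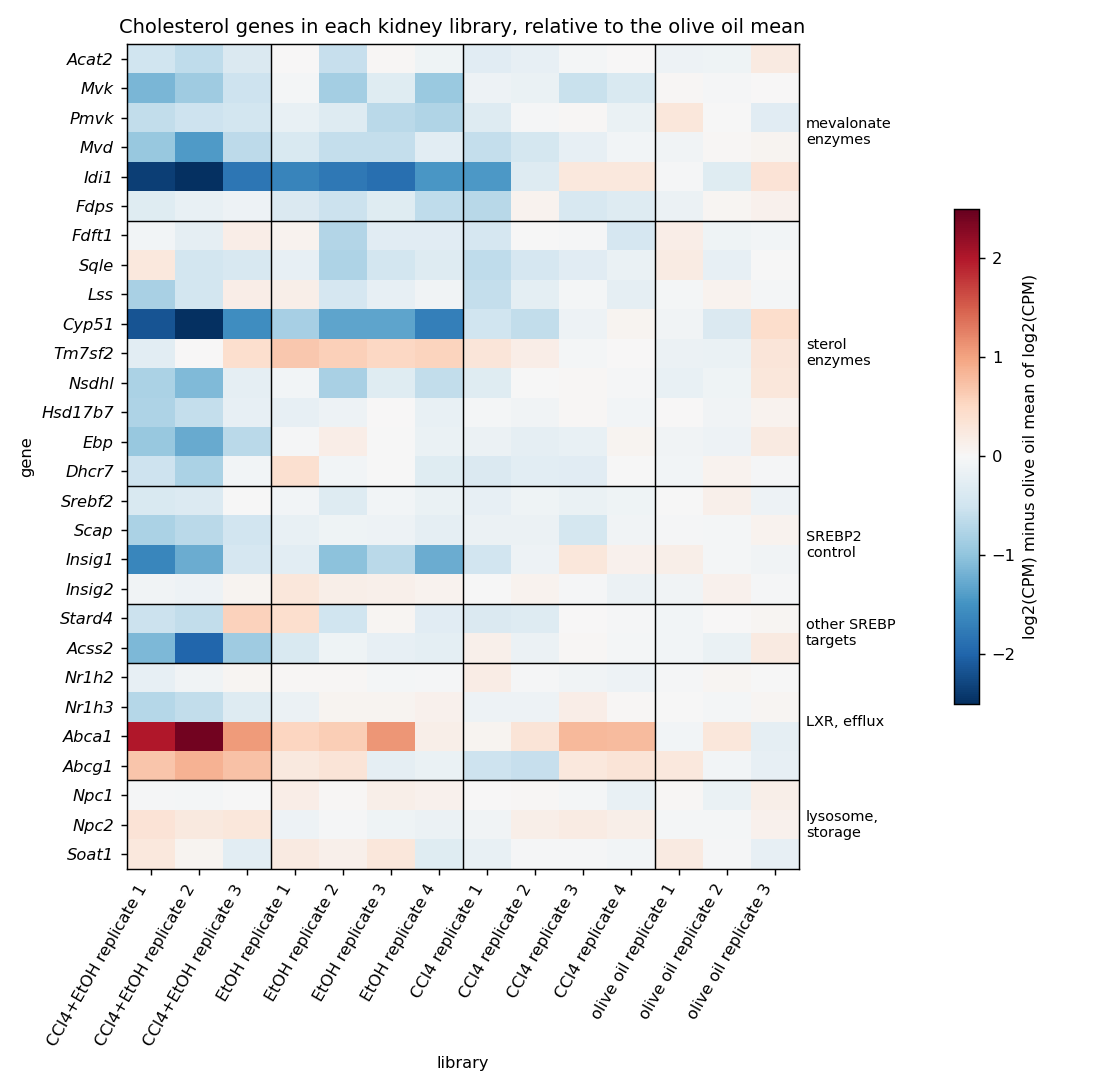
Level of the 28 members (rows, by role) in each library (columns, by group), as log2(CPM) minus the mean of log2(CPM) over the 3 olive oil libraries, on a color scale of log2 units. Idi1 and Cyp51 are the darkest blue rows in the CCl4+EtOH libraries and are also blue in the EtOH libraries, while Abca1 is red in the CCl4+EtOH libraries.

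The mevalonate enzymes build isoprene units from acetyl-CoA. Of the 6 measured, 5 fell in CCl4+EtOH kidneys, with a median log2 fold change of -0.69 for the 6. Idi1, the isomerase of isopentenyl diphosphate, had 20.2, 18.3 and 29.2 CPM in CCl4+EtOH libraries, 32.8, 29.6, 27.9 and 37.6 CPM in EtOH libraries, 37.9, 82.4, 124.3 and 123.1 CPM in CCl4 libraries, and 100.6, 83.5 and 129.9 CPM in olive oil libraries. All CCl4+EtOH and EtOH libraries lay below all olive oil libraries, and in the CCl4 group replicate 1, from the 6-week schedule, lay just above the highest EtOH library while the other libraries reached the olive oil range or just below it. The log2 fold change of Idi1 in CCl4+EtOH against olive oil kidneys was -2.21 ± 0.36 (SE, adjusted p = 0.000793).

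Mvd, the decarboxylase that makes isopentenyl diphosphate, had 36.0, 26.2 and 44.3 CPM in CCl4+EtOH libraries, 53.4, 46.5, 46.1 and 58.0 CPM in EtOH libraries, 46.4, 51.3, 61.1 and 66.8 CPM in CCl4 libraries, and 66.2, 71.1 and 73.0 CPM in olive oil libraries. The CCl4+EtOH libraries lay below every library of the other groups. Its log2 fold change against olive oil was -0.98 ± 0.17 (SE, adjusted p = 0.00101). Mvk, mevalonate kinase, had 6.95, 8.31 and 10.7 CPM in CCl4+EtOH libraries, 15.0, 8.51, 12.6 and 8.05 CPM in EtOH libraries, 14.1, 13.7, 10.5 and 11.8 CPM in CCl4 libraries, and 15.7, 15.2 and 15.5 CPM in olive oil libraries. Its log2 fold change was -0.84 ± 0.22 (SE, adjusted p = 0.00974).

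Acat2, the cytosolic thiolase that starts the pathway, had 95.8, 87.9 and 105 CPM in CCl4+EtOH libraries, 138, 91.7, 139 and 127 CPM in EtOH libraries, 111, 118, 131 and 137 CPM in CCl4 libraries, and 125.5, 127 and 158 CPM in olive oil libraries. Its log2 fold change was -0.51 ± 0.15 (SE, adjusted p = 0.0166). Pmvk, phosphomevalonate kinase, was called lower as well, with 10.6, 11.5 and 11.9 CPM in CCl4+EtOH libraries, 14.3, 13.1, 10.2 and 9.70 CPM in EtOH libraries, 13.1, 15.9, 16.7 and 14.6 CPM in CCl4 libraries, and 19.9, 16.2 and 13.5 CPM in olive oil libraries. For Acat2 and Pmvk the CCl4+EtOH and olive oil libraries did not overlap. Fdps, farnesyl diphosphate synthase, did not pass the test (log2 fold change -0.21, adjusted p = 0.338).

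The sterol enzymes carry squalene through lanosterol to cholesterol, and 4 of the 9 fell in CCl4+EtOH kidneys, with a median log2 fold change of -0.43 for the 9. Cyp51, lanosterol demethylase, had 83.5, 47.9 and 126 CPM in CCl4+EtOH libraries, 211, 149.7, 149.8 and 113 CPM in EtOH libraries, 263.2, 243, 339 and 391 CPM in CCl4 libraries, and 352, 292 and 502 CPM in olive oil libraries. The CCl4+EtOH and EtOH libraries lay below all CCl4 and olive oil libraries, and they overlapped each other. The log2 fold change in CCl4+EtOH against olive oil kidneys was -2.15 ± 0.34 (SE, adjusted p = 0.000637).

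Ebp, the sterol isomerase that acts after lanosterol, showed another pattern, with low values in CCl4+EtOH libraries alone. It had 42.5, 34.3 and 51.6 CPM in CCl4+EtOH libraries, 80.8, 92.5, 81.8 and 73.2 CPM in EtOH libraries, 74.5, 70.6, 72.2 and 85.9 CPM in CCl4 libraries, and 77.1, 75.4 and 95.8 CPM in olive oil libraries. Its log2 fold change against olive oil was -0.95 ± 0.14 (SE, adjusted p = 0.000411), the smallest adjusted p among the members in this comparison. Hsd17b7, a sterol ketoreductase, had 20.3, 23.0 and 30.3 CPM in CCl4+EtOH libraries, 30.4, 32.0, 34.9 and 30.8 CPM in EtOH libraries, 33.7, 32.6, 35.6 and 33.4 CPM in CCl4 libraries, and 35.1, 32.8 and 36.9 CPM in olive oil libraries. Its log2 fold change was -0.51 ± 0.12 (SE, adjusted p = 0.00535), and CCl4+EtOH replicate 3 was close to the lowest EtOH library.

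Nsdhl, which takes part in removing methyl groups from sterols, was called lower, with 48.4, 38.9 and 72.2 CPM in CCl4+EtOH libraries, 79.7, 47.9, 68.2 and 54.6 CPM in EtOH libraries, 68.25, 83.9, 85.4 and 82.8 CPM in CCl4 libraries, and 74.4, 78.1 and 102 CPM in olive oil libraries. CCl4+EtOH replicate 3 lay close to the lowest olive oil library. The remaining 5 did not pass the test in this comparison. They were squalene synthase Fdft1 (log2 fold change -0.03), squalene epoxidase Sqle (-0.16), lanosterol synthase Lss (-0.32), the sterol reductase Tm7sf2 (0.07) and the late reductase Dhcr7 (-0.43, adjusted p = 0.0814).

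**Figure D2:**
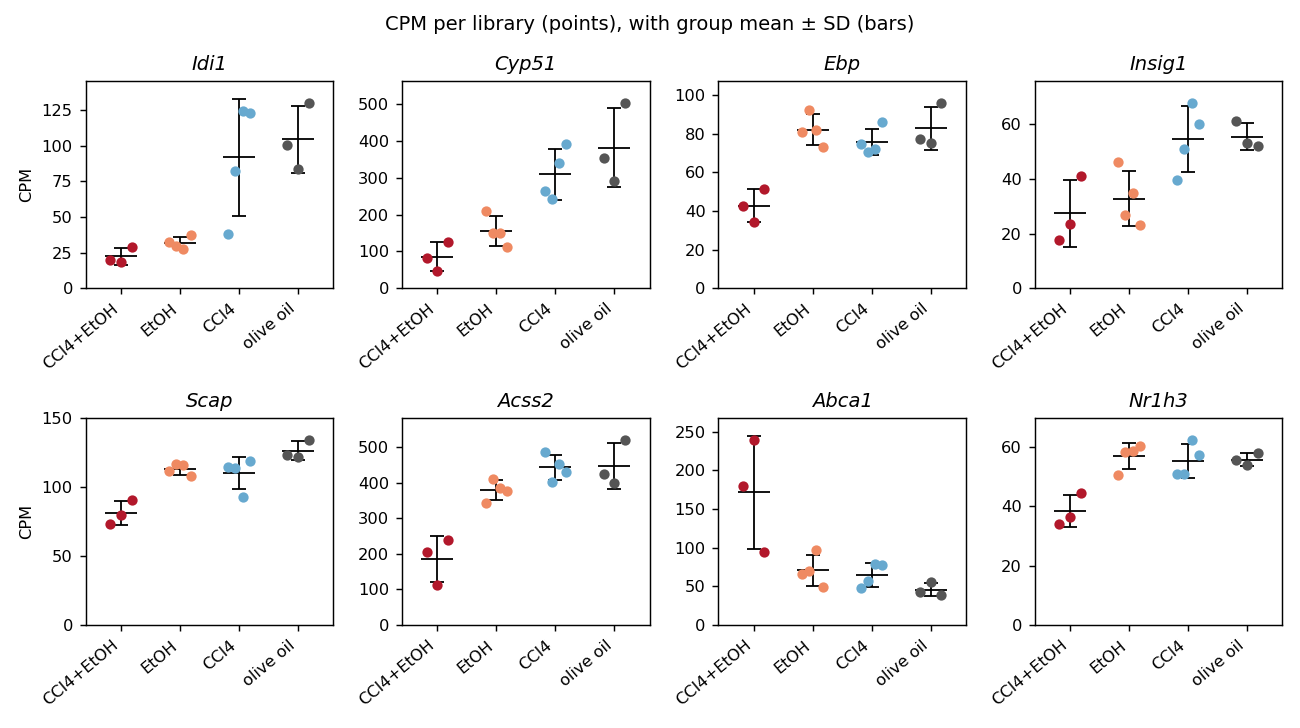
CPM of 8 members in each library (points, CCl4+EtOH at the left and olive oil at the right), with the mean and SD of each group as bars on axes that start at 0. Idi1 and Cyp51 are low in both groups given ethanol, Ebp, Scap, Acss2 and Nr1h3 are low in the CCl4+EtOH libraries, and Abca1 spans 94.7 to 239 CPM in the CCl4+EtOH libraries, above every olive oil library.

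Averaged over the 15 measured synthesis enzymes, log2(CPM) was 4.80, 4.67 and 5.18 in CCl4+EtOH libraries, 5.42, 5.05, 5.21 and 5.11 in EtOH libraries, 5.19, 5.41, 5.47 and 5.50 in CCl4 libraries, and 5.58, 5.51 and 5.71 in olive oil libraries. Every library of the treated groups lay below the 3 olive oil libraries in this mean, which weights each enzyme equally and was not tested. Of the 15 enzymes, 9 were called lower in CCl4+EtOH against olive oil kidneys.

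Among the 4 genes that control SREBP2, the escort Scap and the retention protein Insig1 fell. Scap had 73.2, 79.6 and 90.5 CPM in CCl4+EtOH libraries, 111.4, 117, 116 and 108 CPM in EtOH libraries, 115, 113.5, 93.1 and 119 CPM in CCl4 libraries, and 123, 122 and 134 CPM in olive oil libraries. The CCl4+EtOH libraries were the lowest of all, and the log2 fold change was -0.64 ± 0.10 (SE, adjusted p = 0.000552). Insig1, itself an SREBP target, had 17.8, 23.4 and 41.1 CPM in CCl4+EtOH libraries, 46.0, 27.0, 34.8 and 23.3 CPM in EtOH libraries, 39.8, 50.8, 67.7 and 59.9 CPM in CCl4 libraries, and 61.2, 53.2 and 52.0 CPM in olive oil libraries. Its libraries from CCl4+EtOH and EtOH kidneys overlapped each other and lay below the olive oil libraries, and the log2 fold change in CCl4+EtOH was -1.02 ± 0.30 (SE, adjusted p = 0.0189).

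Srebf2, the gene of SREBP2, had 82.9, 84.8 and 107 CPM in CCl4+EtOH libraries, 103, 86.6, 102 and 96.5 CPM in EtOH libraries, 93.3, 99.5, 96.2 and 99.6 CPM in CCl4 libraries, and 108, 118 and 98.5 CPM in olive oil libraries. CCl4+EtOH replicate 3 overlapped the olive oil libraries. The log2 fold change of -0.24 ± 0.10 did not pass the test (SE, adjusted p = 0.0883). Insig2, which also retains SREBP2 and is less dependent on SREBP, had a log2 fold change of -0.05 (adjusted p = 0.664).

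Of the SREBP targets beside the pathway, Acss2, which makes acetyl-CoA from acetate, fell to 204, 113 and 240.1 CPM in CCl4+EtOH libraries. It had 343.5, 411, 384 and 375 CPM in EtOH libraries, 487, 402, 453 and 429 CPM in CCl4 libraries, and 424, 398 and 519.9 CPM in olive oil libraries. The CCl4+EtOH libraries lay below every other library, with a log2 fold change against olive oil of -1.27 ± 0.21 (SE, adjusted p = 0.000708). Stard4, a carrier of cholesterol between membranes, had 43.1, 40.6 and 92.2 CPM in CCl4+EtOH libraries and 59.4, 62.9 and 64.3 CPM in olive oil libraries. The value of replicate 3 lay above the olive oil libraries and those of replicates 1 and 2 below them, and Stard4 did not pass the test (log2 fold change -0.09, adjusted p = 0.834). Without CCl4+EtOH replicate 3 its log2 fold change was -0.58 (adjusted p = 0.0414).

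The exporters Abca1 and Abcg1, known LXR targets, rose in CCl4+EtOH kidneys. Abca1 had 180.1, 239 and 94.7 CPM in CCl4+EtOH libraries, 65.5, 69.2, 97.5 and 49.8 CPM in EtOH libraries, 47.6, 56.3, 79.0 and 77.7 CPM in CCl4 libraries, and 43.1, 55.1 and 38.6 CPM in olive oil libraries. All CCl4+EtOH libraries lay above the olive oil libraries, while replicate 3 lay within the range of the EtOH libraries. The log2 fold change against olive oil was 1.91 ± 0.32 (SE, adjusted p = 0.000971). Abcg1 was called higher, with 18.9, 21.2 and 19.4 CPM in CCl4+EtOH libraries, 13.7, 14.5, 9.91 and 10.3 CPM in EtOH libraries, 8.09, 7.70, 14.0 and 14.5 CPM in CCl4 libraries, and 14.0, 11.1 and 10.1 CPM in olive oil libraries.

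Nr1h3, the gene of LXR alpha, fell while the exporters rose. It had 34.0, 36.6 and 44.5 CPM in CCl4+EtOH libraries, 50.6, 58.5, 58.6 and 60.4 CPM in EtOH libraries, 50.84, 50.83, 62.4 and 57.2 CPM in CCl4 libraries, and 55.5, 53.9 and 58.0 CPM in olive oil libraries. The CCl4+EtOH libraries lay below every other library, with a log2 fold change against olive oil of -0.54 ± 0.11 (SE, adjusted p = 0.00219). Nr1h2, the gene of LXR beta, did not pass the test (log2 fold change -0.08, adjusted p = 0.499).

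Cholesterol from lipoproteins leaves lysosomes through NPC2 and NPC1, and SOAT1 esterifies it for storage. Npc2 was called higher, with 169, 157 and 162 CPM in CCl4+EtOH libraries, 122, 131, 124.5 and 120.3 CPM in EtOH libraries, 125.5, 147.3, 153.5 and 147.4 CPM in CCl4 libraries, and 128.9, 129.2 and 143 CPM in olive oil libraries. Npc1 had 38.8, 38.3 and 39.1 CPM in CCl4+EtOH libraries against 40.1, 35.1 and 43.6 CPM in olive oil libraries, and its log2 fold change was -0.03 ± 0.09 (SE, adjusted p = 0.803). Soat1 had 36.5, 31.6 and 25.1 CPM in CCl4+EtOH libraries against 35.4, 29.8 and 26.3 CPM in olive oil libraries, and its log2 fold change was 0.03 ± 0.16 (SE, adjusted p = 0.902). The groups of Npc1 and Soat1 overlapped.

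Levels of cell type markers moved with these differences in the CCl4+EtOH libraries. The summed level of 12 proximal tubule markers was 8495 to 21540 CPM in CCl4+EtOH libraries against 22670 to 25420 CPM in olive oil libraries, with 5 of 12 called lower. The summed level of 11 macrophage markers was 636 to 946 CPM in CCl4+EtOH libraries against 244 to 360.3 CPM in olive oil libraries, with 10 of 11 called higher. All 5 injured tubule markers were called higher, with summed levels of 289 to 2970 CPM in CCl4+EtOH libraries against 26.4 to 42.5 CPM in olive oil libraries. All 5 dividing cell markers were called higher too, with summed levels of 24.8 to 289.8 CPM in CCl4+EtOH libraries against 7.55 to 12.3 CPM in olive oil libraries. Distal segments had 3 of 9 markers called lower (loop of Henle, distal tubule and collecting duct), with summed levels of 5368 to 8206 CPM in CCl4+EtOH libraries against 8148 to 9841 CPM in olive oil libraries. No marker of these 5 lists was at 0 in a whole group. Their part in the changes of the members was not tested.

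**Figure D3:**
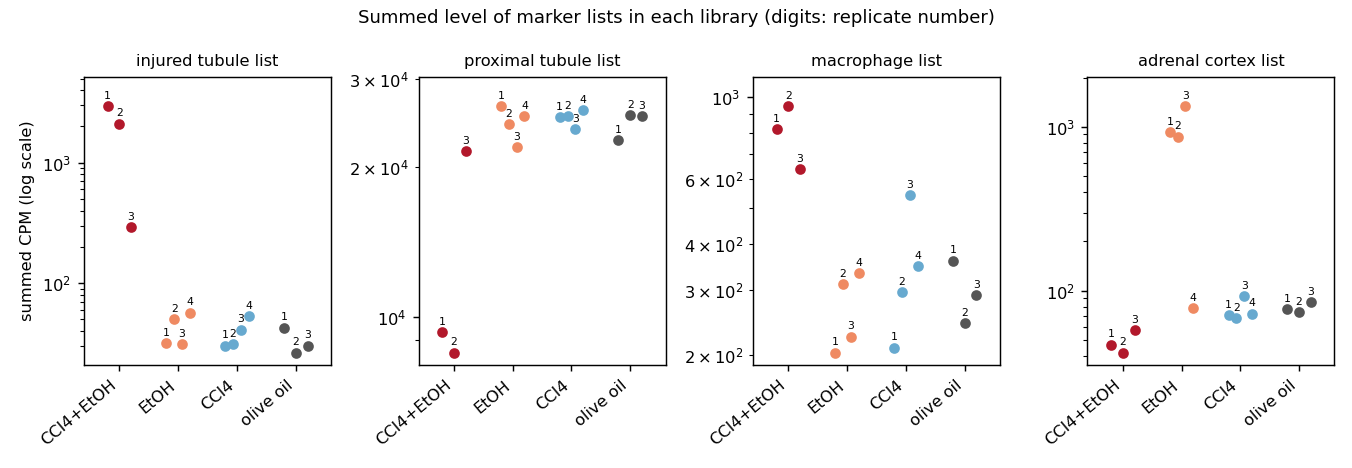
Summed CPM (log scale) of 4 marker lists in each library, labelled with replicate numbers, CCl4+EtOH at the left and olive oil at the right. CCl4+EtOH replicates 1 and 2 are high for the injured tubule list and low for the proximal tubule list, replicate 3 is less so, and EtOH replicates 1 to 3 are high for the adrenal cortex list.

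CCl4+EtOH replicate 3, the library with the lowest injury markers of its group, was nearest of the 3 to the olive oil mean for 13 of the 13 members that fell and for 1 of the 3 that rose. This library stood apart over all genes too. Its chi-square per gene was 159 against replicate 1 and 131 against replicate 2, with 28.1 between replicates 1 and 2. The share over all genes that fell was not counted, so nothing particular to the members is shown. Adding a term that splits the libraries by title number left 9 members called in CCl4+EtOH against olive oil kidneys, 8 lower and 1 higher. The share over all genes under this term is not given, so the loss of calls is not shown to be particular to the members. All CCl4+EtOH libraries carry high title numbers and all analysed olive oil libraries low ones, so this term was estimated from the CCl4 and EtOH libraries alone. In the CCl4 group the numbers split the libraries exactly by schedule, and in the EtOH group they set replicate 1 apart from the others. Title number and CCl4 schedule therefore cannot be told apart in this term. The term ended the calls of Acat2 (adjusted p = 0.0835), Mvk (0.287), Pmvk (0.188), Nsdhl (0.223), Insig1 (0.112), Abcg1 (0.35) and Npc2 (0.252).

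Among the 16 called members, 6 lost the call in CCl4+EtOH against olive oil when a library was left out, without a change of sign. The share of all called genes that lost their call was not counted. The calls of Pmvk and Nsdhl were lost without CCl4+EtOH replicate 1 (adjusted p = 0.0802 and 0.105) and without CCl4+EtOH replicate 2 (0.057 and 0.129), and also without olive oil replicate 1 for Pmvk (0.0965) and olive oil replicate 3 for Nsdhl (0.122). That of Acat2 was lost without CCl4+EtOH replicate 2 (0.0689) or olive oil replicate 3 (0.0794). For Insig1 the adjusted p was 0.0839 without CCl4+EtOH replicate 1, 0.0789 without CCl4+EtOH replicate 2 and 0.053 without olive oil replicate 1. For Abcg1 it was 0.0693 without CCl4+EtOH replicate 2, 0.0743 without olive oil replicate 2 and 0.0866 without olive oil replicate 3. For Npc2 it was 0.0562 without CCl4+EtOH replicate 1, 0.0696 without olive oil replicate 1 and 0.0725 without olive oil replicate 2.

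Set against EtOH kidneys, CCl4+EtOH kidneys had lower levels of Mvd, of the sterol enzymes Cyp51, Ebp, Hsd17b7 and Tm7sf2, and of Scap, Acss2 and Nr1h3, and higher levels of both exporters, whereas Idi1, Insig1 and Nsdhl were not called. Tm7sf2 was not called against olive oil and averaged 16.6 CPM in CCl4+EtOH libraries, 23.6 CPM in EtOH libraries and 15.8 CPM in olive oil libraries. In this comparison 8 members fell and 3 rose, beside 16.2% of all genes tested called lower and 18.1% called higher. Those that fell were Ebp (log2 fold change -0.94 ± 0.13, SE, adjusted p = 0.000417), Acss2 (-1.03), Cyp51 (-0.86), Nr1h3 (-0.57), Mvd (-0.52), Tm7sf2 (-0.51), Scap (-0.48) and Hsd17b7 (-0.38). Abca1 rose (log2 fold change 1.28 ± 0.29, SE, adjusted p = 0.0052), as did Abcg1 (0.71) and Npc2 (0.39). For Idi1 the log2 fold change was -0.50 ± 0.33 (SE, adjusted p = 0.262) and for Insig1 it was -0.26 (adjusted p = 0.505).

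The adrenal transcripts in EtOH replicates 1 to 3 touch this comparison. With the adrenal cortex level as a covariate 4 members were called. Keeping EtOH replicate 4 and leaving out EtOH replicates 1 to 3 gave 0 called members among 335 called genes, in a fit that takes the spread of the remaining EtOH library from the other groups. The log2 fold change of Ebp was -0.81 with the covariate (adjusted p = 0.0348) and -0.79 with EtOH replicate 4 alone (adjusted p = 0.0604), and that of Abca1 was 1.87 (adjusted p = 0.0347) and 1.77 (adjusted p = 0.0689). That of Cyp51 was -0.41 with the covariate (adjusted p = 0.568). Leaving out CCl4+EtOH replicate 1 or 2 left 6 members called, and leaving out replicate 3 gave 17. Shares over all genes are not given for the covariate fit or for these fits without a library. Their member counts therefore show nothing particular to the members.

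Set against CCl4 kidneys, CCl4+EtOH kidneys had 10 members lower and 2 higher, beside 16.2% of all genes tested called lower and 18.7% called higher. Idi1 (log2 fold change -2.03 ± 0.34, SE, adjusted p = 0.000949) and Cyp51 (-1.85 ± 0.32, SE, adjusted p = 0.00101) had the lowest values again. Acss2 (-1.25), Insig1 (-0.99), Ebp (-0.82), Mvd (-0.67), Nsdhl (-0.59), Nr1h3 (-0.53), Hsd17b7 (-0.46) and Scap (-0.44) were the others that fell, and Abca1 (1.40) and Abcg1 (0.85) rose. With only the 2 CCl4 libraries of the longer schedule as the CCl4 group, an alternative chosen after seeing the data, 11 members were called. The share over all genes in that fit is not given.

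Ethanol without CCl4 gave no called member against olive oil with edgeR's quasi-likelihood test, in a comparison with 0.168% of all genes called in either direction (27 genes). At an unadjusted p under 0.05 there were 9 members and 1679 genes, and DESeq2 called 3 members among 348 genes and limma-voom 4 among 251 genes. Idi1 had a log2 fold change of -1.71 ± 0.32 (SE, adjusted p = 0.0537 in edgeR and 2.39e-05 in DESeq2) and was lower in 4 of 4 EtOH libraries than in any olive oil library. Cyp51 had a log2 fold change of -1.29 ± 0.30 (SE, adjusted p = 0.0993 in edgeR and 0.00218 in DESeq2), and Insig1 of -0.76 (adjusted p = 0.32 in edgeR). Tm7sf2 went the other way, with 25.1, 23.6, 22.5 and 23.0 CPM in EtOH libraries against 14.2, 14.0 and 19.3 CPM in olive oil libraries, and a log2 fold change of 0.58 ± 0.16 (SE, adjusted p = 0.142 in edgeR and 0.0394 in DESeq2). In EtOH replicate 4, whose adrenal markers were at the olive oil level, Idi1 (37.6 CPM), Cyp51 (113 CPM) and Insig1 (23.3 CPM) were below every olive oil library and Tm7sf2 (23.0 CPM) was above them. Leaving out CCl4+EtOH replicate 3 gave 2 called members, Idi1 (adjusted p = 0.0464) and Tm7sf2 (adjusted p = 0.0499), and leaving out EtOH replicate 4 or CCl4 replicate 1 gave 1 each. For these fits without a library the shares over all genes are not given. The median log2 fold change of the 15 enzymes was -0.43, and that of all genes tested was -0.00137.

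CCl4 without ethanol gave no called member either, and 0% of all genes were called with edgeR. No member had an unadjusted p under 0.05, against 640 genes, and DESeq2 and limma-voom called no member. The log2 fold changes of the members against olive oil ran from -0.38 for Sqle to 0.51 for Abca1, with 25 of 28 below 0 and a median of -0.13. The median of all genes tested was -0.00142, and the share of all genes below 0 was not counted. Abca1 had 79.0 and 77.7 CPM in the 2 libraries of the longer schedule and 47.6 and 56.3 CPM in those of the 6-week schedule. These 3 comparisons share the olive oil libraries, so their values stand side by side and are not independent.

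**Figure D4:**
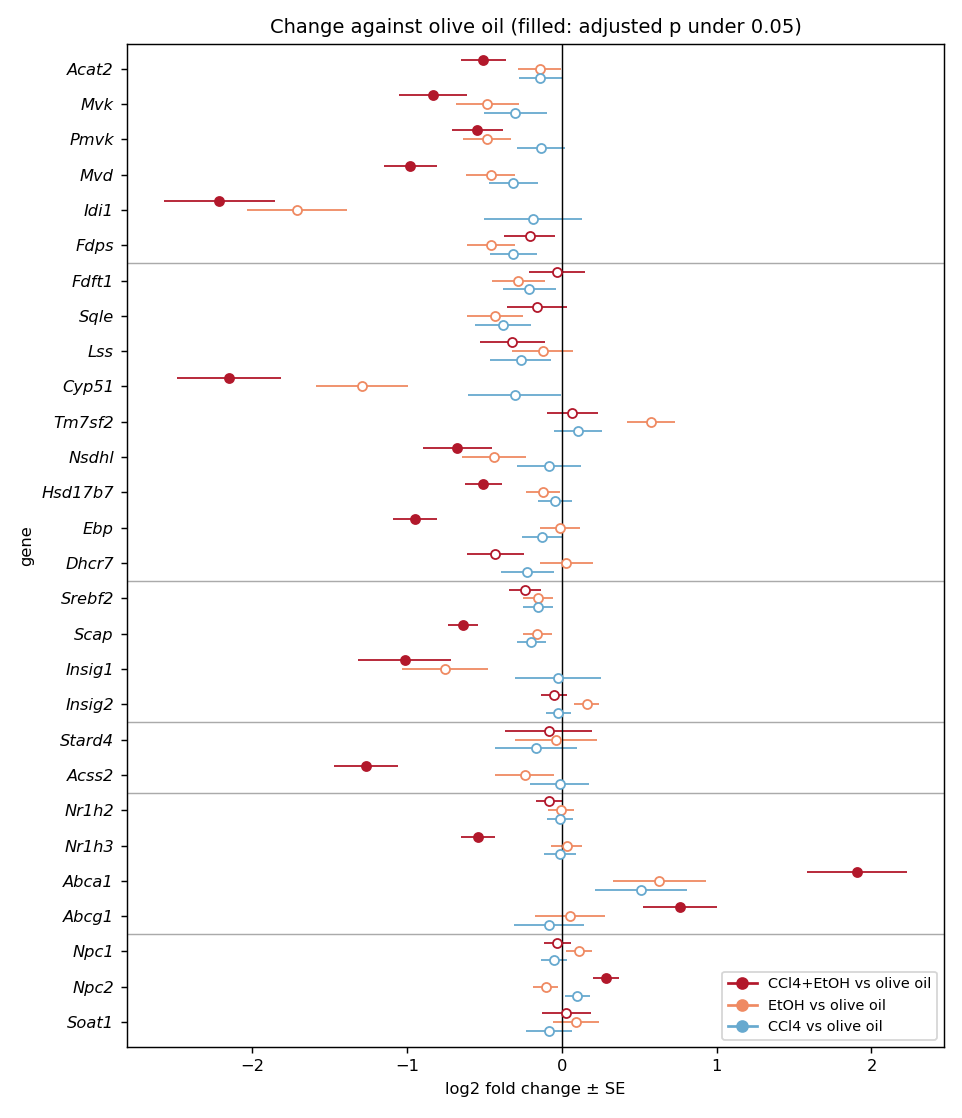
Log2 fold change (x axis, ± SE) of each member (rows, by role) in CCl4+EtOH, EtOH and CCl4 kidneys against olive oil, with filled points for an adjusted p under 0.05. The filled points are all from CCl4+EtOH kidneys, 13 to the left of 0 and 3 to the right, and Idi1 and Cyp51 in EtOH kidneys lie at -1.71 and -1.29 with open points.

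Whether CCl4 changed the members differently with ethanol than without it was tested as an interaction, the log2 fold change of CCl4+EtOH over EtOH minus that of CCl4 over olive oil. Both ethanol groups went through the added 4 weeks, while the olive oil mice and part of the CCl4 mice did not. Ethanol and the added weeks therefore cannot be told apart in this test. Ebp (-0.81 ± 0.19, SE, adjusted p = 0.0218), Acss2 (-1.01 ± 0.27, SE, adjusted p = 0.0373) and Nr1h3 (-0.56 ± 0.14, SE, adjusted p = 0.0318) passed, each with a more negative difference when ethanol was given. Among all genes tested 3.63% had a called negative interaction and 5.49% a positive one. For Idi1 the interaction was -0.31 ± 0.46 (SE, adjusted p = 0.693) and for Cyp51 -0.55 ± 0.43 (SE, adjusted p = 0.418), so these 2 genes were not shown to respond to CCl4 differently with ethanol. None of the 3 called interactions passed with the adrenal covariate, with EtOH replicate 4 alone, or without CCl4+EtOH replicate 1, olive oil replicate 1 or olive oil replicate 2. Leaving out CCl4+EtOH replicate 2, EtOH replicate 2, 3 or 4, or CCl4 replicate 3 or 4 left 1 member called in each case, and leaving out CCl4+EtOH replicate 3 gave 7. Shares over all genes in these fits are not given, so the shifts are not shown to be particular to the members.

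Other genes of cholesterol handling were taken from lists of the same pathway, of which 46 were tested. In CCl4+EtOH against olive oil kidneys 13 of these fell and 7 rose, with a median log2 fold change of -0.11. Over all genes tested 16.6% were called lower and 18.9% higher, and the shorter lists below stand beside the same shares. Of 11 further genes listed under synthesis 5 fell, among them the sterol desaturase Sc5d (log2 fold change -0.73), the electron donor Por (-0.71) and Tmem97 (-0.65). Acat1 also fell (-1.64, adjusted p = 0.00015), but it encodes a mitochondrial thiolase and not the cytosolic one that starts the pathway. The calls of Por and Tmem97 were lost without CCl4+EtOH replicate 1 (0.0579 and 0.0591) or 2 (0.0577 and 0.0702), and that of Por also without olive oil replicate 3 (0.0626).

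Of 6 genes of SREBP processing and turnover 1 fell, and of 9 uptake genes 1 fell and 1 rose. These counts were near or below the shares over all genes. Lrp1, an endocytic receptor that takes up lipoprotein remnants, was the one that rose, with 209, 161 and 191 CPM in CCl4+EtOH libraries, 133, 151, 124 and 127 CPM in EtOH libraries, 106, 146, 119 and 122 CPM in CCl4 libraries, and 137, 121 and 102.5 CPM in olive oil libraries (log2 fold change of CCl4+EtOH over olive oil 0.64, adjusted p = 0.00315). Its CCl4+EtOH libraries lay above every other library.

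Of 14 genes of efflux, transport and storage, 4 fell and 3 rose. Apoe, the apolipoprotein E gene, rose to 271.2, 677 and 561 CPM in CCl4+EtOH libraries, against 239, 179 and 150.5 CPM in olive oil libraries (log2 fold change 1.41, adjusted p = 0.00215). It had 163.1, 187.3, 137.3 and 168.9 CPM in EtOH libraries and 247.8, 262.8, 296.9 and 192 CPM in CCl4 libraries. CCl4+EtOH replicate 1 lay within the range of the CCl4 libraries. The ester hydrolase gene Nceh1 (-0.52), the sterol carrier Stard5 (-0.39) and the oxysterol binding protein gene Osbp (-0.23) fell. Without CCl4+EtOH replicate 1 the adjusted p of Stard5 was 0.0502 and that of Osbp 0.105, and Osbp also lost its call without olive oil replicate 1 (0.052), 2 (0.0513) or 3 (0.0645). Of 6 oxysterol and bile acid enzymes, 2 fell and 3 rose. Cyp7b1, which hydroxylates oxysterols, had 29.6, 12.6 and 8.98 CPM in CCl4+EtOH libraries, 60.3, 114, 65.6 and 106 CPM in EtOH libraries, 155.5, 129.8, 210.1 and 168.5 CPM in CCl4 libraries, and 396, 203 and 282 CPM in olive oil libraries (log2 fold change of CCl4+EtOH over olive oil -4.10 ± 0.44, SE, adjusted p = 8.99e-05). Libraries of CCl4+EtOH, EtOH, CCl4 and olive oil kidneys lay in that order, lowest first, with overlap between CCl4 and olive oil libraries, and CCl4+EtOH replicate 3 held the lowest value of all. Cyp27a1, which makes an oxysterol from cholesterol, fell (-0.73), while Ch25h, another cholesterol hydroxylase, and Hsd3b7 rose (1.93 and 0.64). Levels of Ch25h were low, with 6.75, 6.46 and 2.12 CPM in CCl4+EtOH libraries against 1.35, 1.02 and 1.68 CPM in olive oil libraries. For Ch25h, CCl4+EtOH replicate 3 lay within the range of the EtOH libraries (1.14 to 3.02 CPM). Among the genes named from these lists, the term for title numbers ended the calls of Sc5d (adjusted p = 0.0659), Por (0.111), Tmem97 (0.177), Stard5 (0.123), Osbp (0.0935) and Ch25h (0.146).

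Exons of 7 members overlap a gene on the other strand in the GENCODE annotation, Idi1, Cyp51, Acss2 and Scap among them, and those of Fdps, Nr1h3 and Tm7sf2 overlap another gene on the same strand. No source used here states whether strand was used in counting, and for these 10 members reads of the overlapping genes cannot be told apart.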

How the data were processed

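Kidney RNA of male C57BL/6 mice was sequenced by a standard Illumina procedure, per the labels' protocols. The deposited file holds whole-number read counts for each gene symbol, with totals that differ between libraries, so they are taken as not normalized by the authors. The submitters' processing notes name GSNAP and mm9. Versions, counting program, annotation and strand setting were not given in the sources used here. The table held 14 libraries with 16.4 to 23.5 M counts, and 27 of 23893 rows that carried a date in place of a symbol (0.168% to 0.209% of counts) were left out.

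The counts of all 14 libraries in 4 groups entered a robust quasi-likelihood F test in edgeR 4.0.16 (R 4.3.3), after filterByExpr by group and TMM scaling, with Benjamini-Hochberg adjustment over 16105 genes with a threshold of 0.05. Every adjusted p in the text is from this test unless another tool is named. SE is the absolute log2 fold change over the square root of the F statistic. CPM use TMM-scaled library sizes and are not divided by gene length. The pipeline was tested on simulated data. No pair of libraries of a group agreed within sampling noise (chi-square per gene at least 10.3). The labels do not say more of replicates than separate samples, so p-values measure the spread between these samples.

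By rule, members called in CCl4+EtOH or EtOH against olive oil are given with CPM in every library (no member was called in EtOH), and Srebf2 was added to them; the 12 with the smallest p, and Srebf2, Insig1, Abca1, Nr1h3, Npc1 and Soat1, have log2 fold changes with SE, and other pathway genes are named when called in CCl4+EtOH against olive oil, at most 4 per list. Some genes that this rule took are not reported here. The members and lists were chosen with earlier results of these data known. The alternatives used upper-quartile scaling or DESeq2 size factors, DESeq2 1.42.0, limma-voom (limma 3.58.1) with sample quality weights, 2 other low-count filters, other groupings of the fit, a title number block, the adrenal level as a covariate, EtOH replicate 4 as the only EtOH library, and each library left out in turn. Promoter windows came from RefSeq and exon overlaps from GENCODE, both on GRCm38, and were used with no coordinates of the counts.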

Additional observations from a re-analysis of the deposited data

Results flagged for a closer look

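In the CCl4 group Nsdhl had 68.25 CPM in replicate 1, while the other 3 libraries lay between 82.8 and 85.4 CPM; the gap to the nearest library was 0.848 of the group's range, above Dixon's 95% limit for 4 samples. Of 56 member and group pairs with 4 libraries, 1 passed that limit, and chance passes about 1 in 20. The same library was low for Idi1 (37.9 CPM). In edgeR's test of the interaction, ethanol and the added 4 weeks cannot be told apart. The effect of CCl4 on Ebp (interaction log2 -0.81), Acss2 (-1.01) and Nr1h3 (-0.56) differed in it between kidneys with and without ethanol. None of these 3 passed with the adrenal covariate, with EtOH replicate 4 as the only library of its group, or without CCl4+EtOH replicate 1, olive oil replicate 1 or olive oil replicate 2.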

How the results depend on the processing

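For CCl4+EtOH against olive oil, 25 alternative settings were run, 14 of them leaving out a library. Of the 16 called members, 8 were called in all 25 (Mvd, Idi1, Cyp51, Ebp, Scap, Acss2, Nr1h3 and Abca1). Over all 16, 372 of 400 results kept their direction and call, 28 kept the direction without the call, and 0 changed sign. The title number block, which follows the schedule within the CCl4 group, left 9 members called. For CCl4+EtOH against EtOH, the adrenal covariate left 4 called and EtOH replicate 4 alone left 0; without each library in turn the count ran from 6 to 17. For EtOH against olive oil, DESeq2 called 3 members, limma-voom 4, and the fit of 5 groups, the fit of the groups compared and the title number block 1 each, with 0 to 2 without each library. For the interaction limma-voom called 8 of 28 members, beside 4843 of the 16105 genes tested. The adrenal covariate gave 0 members, and leaving out each library gave 0 to 7. For the other settings of this section counts over all genes are not given, so the member counts have no share beside them. The causes of these shifts were not tested. CCl4 against olive oil gave 0 in every setting run. No paired analysis was possible because the groups share no title numbers, and replicate numbers given in accession order pair nothing. With 3 or 4 libraries a group and a spread such as that of Abca1, small changes are not detectable, and a member that missed the threshold was not shown to be stable.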
